A study of Homo sapiens with 6 samples.

Results

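The simple, mucosal and suprabasal keratins of HaCaT cells were followed here, after knockdown of Agrin. A total of 10 genes were chosen by name (KRT1, KRT4, KRT7, KRT8, KRT10, KRT13, KRT18, KRT19, KRT23 and KRT80), and 9 of them had a row among the 14168 listed genes. KRT23 was not analysed here. HaCaT cells are keratinocytes of human epidermis that grow without limit as an established line. One group of cells had received an siRNA against Agrin (siAgrin, 3 libraries), and the other a control siRNA (siControl, 3 libraries), both grown on plastic. Polyadenylated RNA was sequenced, and the values are CPM, the reads of a gene scaled to the size of its library.

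Keratins are the intermediate filament proteins of epithelia, and a filament forms only when an acidic type I keratin pairs with a basic type II keratin. Which pair a cell makes follows its tissue and its state of differentiation. KRT8 and KRT18 form the pair of simple, single-layered epithelia, where KRT7 and KRT19 are often added in ducts and glands. KRT4 and KRT13 form the suprabasal pair of moist, noncornified mucosa such as the oesophagus and the mouth. KRT1 and KRT10 form the suprabasal pair of the epidermis, made as keratinocytes leave the basal layer. KRT80 is a type II keratin found in many epithelia.

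Reads in listed genes came to 40958553 to 43312708 per library, so that counting error was small for each of these keratins but KRT1, which rested on 90 to 304 reads per library. AGRN, the targeted transcript, had 403, 412 and 387 CPM in siAgrin cells, against 797, 833 and 833 CPM in siControl cells. A list of 10 keratinocyte markers was present in every library, with a summed level of 12445 to 13895 CPM in siAgrin and 10785 to 11150 CPM in siControl libraries. KRT5 and KRT14 made up most of that sum. In the test described below 4 of the 10 rose and 0 fell, where 9.14% of all tested genes rose. CDH1 was lower in every siAgrin library, at 286 to 296 CPM against 306 to 315 CPM in siControl libraries. Markers of other skin cell types lay below every keratinocyte marker or had no row, and a gene without a row may still have had reads. The highest was the immune cell marker CD68, at 24.8 to 36.6 CPM in siAgrin and 35.3 to 46.3 CPM in siControl libraries. That was near the level of KRT10 and above that of KRT1. Of 7 fibroblast markers all were listed, at a summed 9.47 to 46.7 CPM in siAgrin and 12.2 to 19.6 CPM in siControl libraries. The library siAgrin 2 was the highest of these, and PDGFRB was at 0 in siControl 1 and siControl 3. Of 6 endothelial markers only CDH5 had a row, at 1.43 to 2.25 CPM in siAgrin and 20.1 to 26.4 CPM in siControl libraries. CDH5 and the immune cell marker HLA-DRA were the only markers of other cell types that passed the test described below. Both were lower in siAgrin cells, with log2 fold changes of -3.42 and -1.18 (limma adjusted p = 2.3e-05 and 0.0041). Of 5 melanocyte, 6 Merkel cell and 6 immune cell markers 1, 1 and 3 had a row. Their summed levels in siAgrin and siControl libraries were 1.99 to 2.93 and 3.26 to 3.87 CPM for melanocytes, 2.35 to 2.71 and 1.52 to 2.04 CPM for Merkel cells, and 26.0 to 39.0 and 39.1 to 51.0 CPM for immune cells. The part of these transcripts in the keratin values was not tested.

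In siAgrin cells KRT13, KRT4, KRT7 and KRT1 fell and KRT8 rose, while KRT19, KRT10, KRT18 and KRT80 did not pass the test. The falls left KRT1, KRT4, KRT13 and KRT7 at 48.1%, 53.5%, 60.7% and 66.6% of their siControl means, and KRT8 stood at 120.6%. The words rose and fell are kept for an adjusted p under 0.01 in limma, which was fitted to log2(CPM + 0.5) of 13050 genes. These genes reached 0.5 CPM in 3 or more libraries, and all 9 keratins were among them. Of all tested genes 18.2% were called, 9.14% higher and 9.07% lower in siAgrin cells, against 1 of 9 keratins higher and 4 of 9 lower. The median log2 fold change of the 9 keratins was -0.40, and that of all tested genes -0.0019. In 6 of the 9 the siAgrin and siControl libraries did not overlap, as in 50% of all tested genes. In bulk RNA, fewer cells that express a keratin and less of its RNA in each cell cannot be told apart. No library came from cells with Agrin restored, so loss of Agrin and other effects of the siRNA cannot be told apart either. Nothing in the labels says that the 3 libraries of a group came from separate cultures, so the p-values measure only the spread between these libraries.

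**Figure D1:**
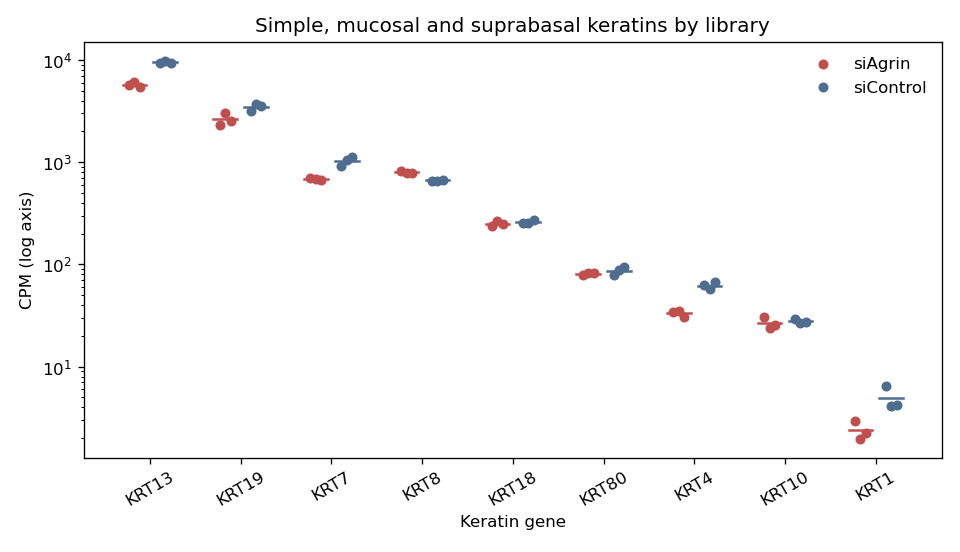
CPM (log axis) of the 9 keratins in each library, siAgrin left and siControl right of each gene name, with bars at the group means. The siAgrin points of KRT13, KRT7, KRT4 and KRT1 lie below all siControl points, those of KRT8 lie above (785 to 827 against 657 to 676 CPM), and those of KRT18, KRT80 and KRT10 overlap with siControl.

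KRT13, the type I keratin of noncornified mucosa, was the most abundant of all listed transcripts by CPM in control cells and was no longer so after knockdown. It had 5754, 6109 and 5399 CPM in siAgrin cells, against 9347, 9714 and 9370 CPM in siControl cells. It ranked first of all listed genes in each siControl library and second, behind GAPDH, in each siAgrin library. The means were 5754 ± 355 CPM in siAgrin and 9477 ± 206 CPM in siControl cells (SD, n = 3 each), a log2 fold change of -0.72 (standard error 0.094, limma adjusted p = 0.0012). KRT13 alone made up 0.628% ± 0.036 of the CPM of all listed genes in siAgrin libraries and 1.03% ± 0.021 in siControl libraries (SD, n = 3 each). The gene lies on chromosome 17 of GRCh38 from 41500981 to 41505705 on the minus strand, in the type I keratin cluster. An antisense noncoding RNA overlaps its exons and is not analysed here.

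KRT4, the type II partner of KRT13, fell as well, at a far lower level, and whether it fell further than KRT13 was not tested. It had 34.1, 35.3 and 30.4 CPM in siAgrin cells, against 62.2, 56.9 and 67.4 CPM in siControl cells. No siAgrin library came near the lowest siControl library. The means were 33.3 ± 2.56 and 62.2 ± 5.27 CPM (SD, n = 3 each), a log2 fold change of -0.89 (standard error 0.077, limma adjusted p = 2.8e-04, the smallest of the 9 keratins). KRT4 lies on chromosome 12 from 52806549 to 52814116 on the minus strand, in the type II keratin cluster.

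The start of KRT4 is shown beside that of KRT10, a suprabasal keratin that did not pass the test, as the 100 bases before the start of each gene. Both were read from RefSeq promoters of GRCh38.p14 on the gene's own strand, KRT4 at chr12:52814117-52814216 and KRT10 at chr17:40822615-40822714, and the capitals mark the letters of the TATA box motif in KRT10 and of its shorter form in KRT4. RefSeq promoters were at hand for 3 of the 9 keratins, the other being KRT8, whose RefSeq start lies 23485 bases inside the gene as GENCODE draws it, so it is not shown.
KRT4: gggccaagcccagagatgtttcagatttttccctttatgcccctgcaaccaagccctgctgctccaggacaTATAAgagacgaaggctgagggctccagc
KRT10: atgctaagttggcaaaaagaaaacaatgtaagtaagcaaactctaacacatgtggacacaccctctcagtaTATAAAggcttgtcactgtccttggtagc
The short form TATAA began 29 bases before the start in both genes, and the TATA box motif TATAAA, which contains it, was found in KRT10 alone of the 3. Over windows of 300 bases (250 before and 50 after the start), 20.4% of 35116 RefSeq promoters held TATAA and 11.5% held TATAAA on either strand. TATAA was searched after the sequences had been seen. The GC box GGGCGG and the AP-1 sites TGACTCA and TGAGTCA, on either strand, were in none of the 3 windows, and in 45.0% and 4.95% of all promoters. A match of letters is a description only.

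Among the keratins of simple epithelia, KRT7 fell and KRT8 rose, and KRT18 and KRT19 did not pass. KRT7, a type II keratin of glands and ducts, had 706, 688 and 663 CPM in siAgrin cells, against 908, 1058 and 1126 CPM in siControl cells. The siAgrin libraries lay close together, below the lowest siControl library. The means were 686 ± 21.8 and 1031 ± 111 CPM (SD, n = 3 each), with a log2 fold change of -0.58 (standard error 0.081, limma adjusted p = 0.0016). KRT7 lies on chromosome 12 from 52232520 to 52252186 on the plus strand, and its exons overlap the antisense RNA KRT7-AS and the pseudogene KRT87P, neither analysed here.

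KRT8, the type II keratin with the widest use in simple epithelia, had 827, 789 and 785 CPM in siAgrin cells, against 657, 657 and 676 CPM in siControl cells. The libraries of each group agreed closely and did not overlap. The means were 800.1 ± 23.0 and 663 ± 11.3 CPM (SD, n = 3 each), with a log2 fold change of 0.27 (standard error 0.047, limma adjusted p = 0.0040). KRT18, its type I partner, had 235, 265 and 246 CPM in siAgrin cells, against 253, 253 and 273 CPM in siControl cells. These values overlapped, with a log2 fold change of -0.06 and a 95% interval from -0.19 to 0.07 (limma adjusted p = 0.42). The genes are neighbours on chromosome 12, KRT8 from 52897187 to 52949954 on the minus strand and KRT18 from 52948871 to 52952906 on the plus strand, and annotated exons of one overlap exons of the other. The strand setting of the authors' counting is not stated, so reads of the overlap could not be assigned with certainty.

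KRT19, the shortest keratin and a type I keratin of ducts and of the hair follicle, was lower in every siAgrin library but did not pass at 0.01. It had 2331, 3061 and 2532 CPM in siAgrin cells, against 3137, 3716 and 3562 CPM in siControl cells. The highest siAgrin library, siAgrin 2, came within a few percent of the lowest siControl library. The log2 fold change was -0.40 with a 95% interval from -0.67 to -0.13 (limma adjusted p = 0.030). Without siAgrin 2 it passed, at a log2 fold change of -0.51 (limma adjusted p = 0.0034), and it also passed in DESeq2 (adjusted p = 0.0013). With any other single library left out it did not pass, at limma adjusted p-values from 0.028 to 0.12. In CPM it ranked 9, 9 and 10 of all listed genes in siAgrin libraries and 6 in each siControl library, so it was the second most abundant of the 9.

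Of the epidermal suprabasal pair KRT1 fell and KRT10 did not pass, both at low levels in these cells. KRT1, the type II member, had 2.97, 1.96 and 2.24 CPM in siAgrin cells, against 6.53, 4.12 and 4.25 CPM in siControl cells. Its groups did not overlap, and siControl 1 stood well above the other siControl libraries. The log2 fold change was -0.91 (standard error 0.19, limma adjusted p = 0.0081), from means of 2.39 ± 0.518 and 4.97 ± 1.36 CPM (SD, n = 3 each). KRT10, the type I member, had 30.7, 23.7 and 25.5 CPM in siAgrin cells, against 29.2, 27.0 and 27.4 CPM in siControl cells. The siAgrin libraries surrounded the siControl libraries, with a log2 fold change of -0.07 and a 95% interval from -0.29 to 0.14 (limma adjusted p = 0.56). KRT10 lies on chromosome 17 from 40818117 to 40822614, where the antisense gene KRT10-AS1, not analysed here, overlaps its exons, and KRT1 on chromosome 12 from 52674736 to 52680407. KRT80, on chromosome 12 from 52168996 to 52192014, had 79.0, 82.5 and 82.3 CPM in siAgrin cells, against 78.3, 87.4 and 93.5 CPM in siControl cells. Its values overlapped, and the 95% interval of the log2 fold change of -0.08 ran from -0.23 to 0.07 (limma adjusted p = 0.33).

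KRT4 was the only one of the 5 called keratins that also passed with each single library left out, at adjusted p-values up to 0.0028. KRT13 and KRT7 did not pass without siAgrin 3 (adjusted p = 0.015 and 0.014 from limma) or without siControl 2 (0.011 and 0.012). KRT8 and KRT1 did not pass without siAgrin 3 (0.024 and 0.041) or without siControl 1, 2 and 3 in turn (0.012, 0.029 and 0.021 for KRT8, and 0.016, 0.019 and 0.022 for KRT1). With siAgrin 3 or siControl 2 left out KRT4 alone was called, and 571 and 667 of all tested genes were. The direction of these 5 genes was the same in all 6 cases. The exact permutation test of CPM over libraries gave p = 0.1, two-sided, for KRT1, KRT4, KRT7, KRT8, KRT13 and KRT19, the smallest p that 3 libraries against 3 allow, and p = 0.6, 0.4 and 0.4 for KRT10, KRT18 and KRT80.

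**Figure D2:**
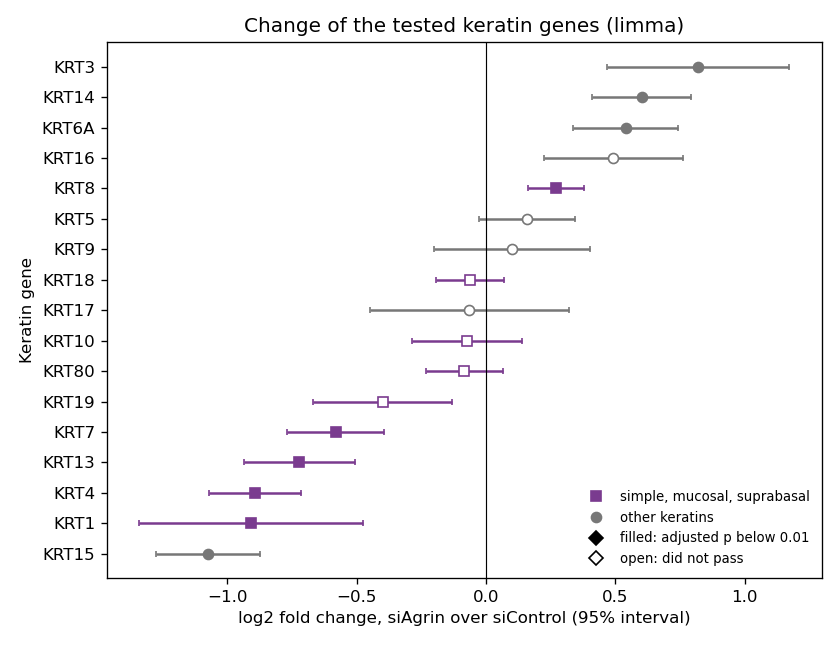
Log2 fold change of siAgrin over siControl (x axis, with 95% intervals from limma) for the 17 tested keratin genes (y axis), squares for the simple, mucosal and suprabasal keratins and circles for the others, filled at an adjusted p below 0.01. Filled squares lie left of 0 for KRT1, KRT4, KRT13 and KRT7 and right of 0 for KRT8, and the intervals of KRT18, KRT10 and KRT80 cross 0.

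Of the 8 other keratins tested 3 rose, 1 fell and 4 did not pass, with a median log2 fold change of 0.33, where 9.14% of all tested genes rose and 9.07% fell. KRT14 and KRT6A, keratins of basal cells and of wound edges, rose to 2950.2 ± 235 and 1291 ± 113 CPM in siAgrin cells, against 1942 ± 111 and 887 ± 79.0 CPM in siControl cells (SD, n = 3 each). KRT3, the type II keratin of the corneal epithelium, rose as well, though its level was near that of KRT1. It had 4.85, 3.30 and 3.99 CPM in siAgrin cells, against 2.43, 1.69 and 2.08 CPM in siControl cells, with a log2 fold change of 0.82 (standard error 0.15, limma adjusted p = 0.0054). KRT15, a basal type I keratin that neighbours KRT13 and KRT19 on chromosome 17, fell by 1.07 on the log2 scale to 873 ± 74.6 CPM in siAgrin cells, against 1837 ± 160.2 CPM in siControl cells (SD, n = 3 each). KRT5, KRT9, KRT16 and KRT17 had log2 fold changes of 0.16, 0.10, 0.49 and -0.06 and did not pass (limma adjusted p = 0.16, 0.57, 0.014 and 0.78). KRT81 and KRT34, keratins of hair, had at most 7 reads in any library and were not tested.

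The 9 keratins took up a smaller share of the CPM of listed keratins after Agrin knockdown. Their summed level was 9999, 11057 and 9765 CPM in siAgrin libraries, against 14478, 15575 and 15199 CPM in siControl libraries. That was 48.5%, 47.0% and 45.6% of the CPM of all 19 listed keratins in siAgrin libraries, against 58.2%, 59.0% and 58.5% in siControl libraries. KRT13 alone held 26.4% ± 1.39 of keratin CPM in siAgrin and 36.8% ± 0.765 in siControl libraries (SD, n = 3 each). Most of the difference in the share of the 9 keratins thus lay in KRT13. The 6 listed basal and wound-edge keratins (KRT5, KRT6A, KRT14, KRT15, KRT16 and KRT17) held 52.9% ± 1.45 and 41.4% ± 0.386 (SD, n = 3 each). All listed keratins together made up 2.27%, 2.54% and 2.34% of CPM in siAgrin libraries, against 2.73%, 2.85% and 2.79% in siControl libraries. These shares are of sums over genes of unequal length and were not tested. Keratins without a row, such as KRT23, are not in them.

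**Figure D3:**
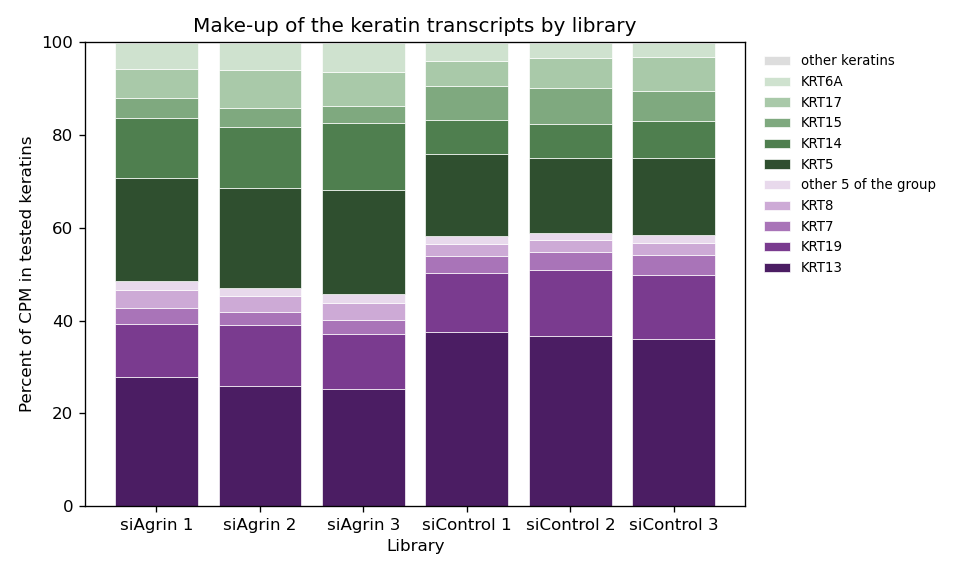
Share of each keratin in the summed CPM of the 17 tested keratins (y axis, percent) for each library (x axis), siAgrin on the left. Purple bars are the simple, mucosal and suprabasal keratins and green bars basal and wound-edge keratins. Purple reaches 45.6% to 48.5% in siAgrin and 58.2% to 59.0% in siControl libraries, and the darkest bar at the base is KRT13.

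To compare levels between genes, CPM was divided by the length in kilobases of the canonical GENCODE transcript. KRT13 was then the highest keratin in each group, with 3357 ± 207 in siAgrin and 5529 ± 120.1 CPM per kilobase in siControl cells (SD, n = 3 each). In siControl cells the order went on with KRT19 (2498 ± 216 CPM per kilobase), KRT7 (634 ± 68.6), KRT8 (372 ± 6.34), KRT18 (184 ± 8.23), KRT4 (29.0 ± 2.46), KRT80 (22.3 ± 1.97), KRT10 (13.01 ± 0.546) and KRT1 (2.03 ± 0.553), and no neighbours in that order overlapped between libraries. The basal and wound-edge keratins KRT5, KRT14, KRT17 and KRT15 lay between KRT19 and KRT7. In siAgrin cells the libraries of KRT19 overlapped those of KRT5 and of KRT14. The values were 1677 to 2202 CPM per kilobase for KRT19, 2040 to 2279 for KRT5 and 1637 to 1889 for KRT14. KRT7, at 408 to 435 CPM per kilobase, lay just below KRT8, at 440 to 463, and KRT4, at 14.2 to 16.5, lay below KRT80, at 20.4 to 21.3, and overlapped KRT10, at 11.0 to 14.3. With the length of all annotated exons in place of the canonical transcript, which is far longer for KRT8, KRT7 remained above KRT8 in siAgrin cells, with 172 against 116 CPM per kilobase.

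The ratios of KRT8 to KRT18 and of KRT1 to KRT10 did not overlap between the groups, and those of KRT4 to KRT13 and of KRT7 to KRT19 did. Taken as single genes, 50% of all tested genes did not overlap either, and no such share was computed for ratios. KRT18 and KRT10 did not pass the test, so these separations largely repeat the changes of KRT8 and KRT1. The log2 ratio of KRT4 to KRT13, in CPM per kilobase, was -7.72, -7.76 and -7.79 in siAgrin cells, against -7.55, -7.74 and -7.44 in siControl cells. The groups overlapped through siControl 2, and the other siControl libraries lay above every siAgrin library. That of KRT7 to KRT19 was -1.95, -2.38 and -2.16 in siAgrin cells, against -2.01, -2.04 and -1.89 in siControl cells, which overlapped as well. That of KRT8 to KRT18 was 1.48, 1.24 and 1.34 in siAgrin cells, against 1.04, 1.04 and 0.97 in siControl cells, higher in every siAgrin library. The ratio of KRT1 to KRT10 was -3.57, -3.78 and -3.71 in siAgrin cells, against -2.36, -2.91 and -2.88 in siControl cells, lower in every siAgrin library. Over all listed keratins, 9 of type II against 10 of type I, the log2 ratio was -1.24, -1.36 and -1.24 in siAgrin cells, against -1.71, -1.84 and -1.78 in siControl cells. Type I transcripts outweighed type II transcripts in each library, by less in siAgrin cells. No test was run on these ratios, and a length other than that of the canonical transcript would shift each ratio by the same amount in all libraries, except the ratio over all keratins.

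**Figure D4:**
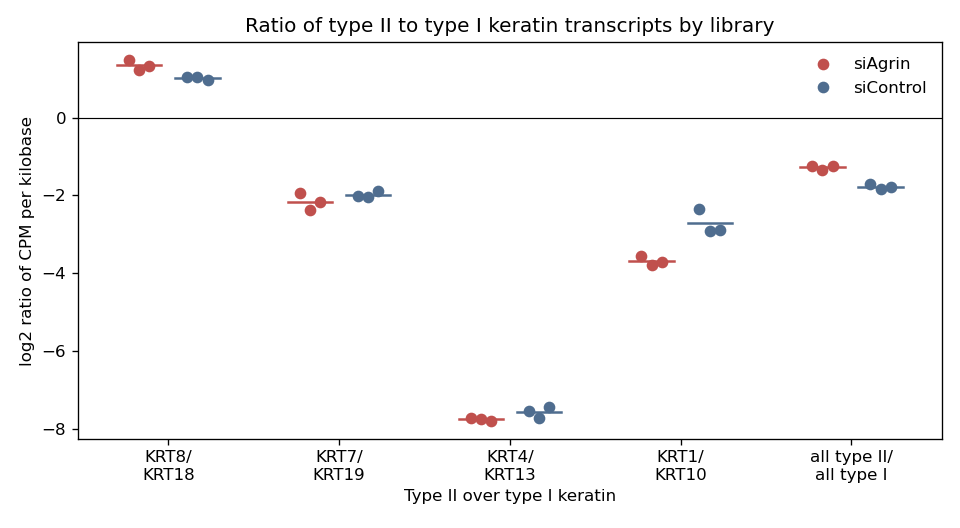
Log2 ratio of type II to type I keratin transcripts in CPM per kilobase (y axis) for 4 keratin pairs and for all listed keratins (x axis), 1 point per library, siAgrin left, siControl right, bars at group means. The groups are apart for KRT8/KRT18 (1.24 to 1.48 against 0.97 to 1.04), KRT1/KRT10 and all keratins, and overlap for KRT7/KRT19 and KRT4/KRT13.

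Pseudogene copies of these keratins can share reads with their parent genes, and 4 such rows were listed, all at a few CPM. KRT8P36 and KRT8P3 had 7.70 ± 0.706 and 3.13 ± 0.533 CPM in siAgrin cells, against 6.33 ± 0.44 and 2.51 ± 0.173 CPM in siControl cells (SD, n = 3 each). Their log2 fold changes of 0.26 and 0.26 did not pass (limma adjusted p = 0.049 and 0.12). KRT8P12 and KRT19P1 had log2 fold changes of -0.05 and -0.31 and did not pass (limma adjusted p = 0.78 and 0.074). How many reads of the parent genes were left uncounted as ambiguous is unknown. The pseudogene KRT16P6, a copy of KRT16, fell by 0.77 on the log2 scale (limma adjusted p = 0.0069).

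Other genes that mark the same kinds of epithelia were counted from lists that had been drawn up with earlier results of these libraries known. Of 9 tested genes of simple epithelia 4 fell and 1 rose, against 9.07% and 9.14% of all tested genes, with a median log2 fold change of -0.29. ELF3, an ETS family transcription factor of epithelia, fell to 617 ± 116 CPM in siAgrin cells, against 1260 ± 130.01 CPM in siControl cells (SD, n = 3 each), a log2 fold change of -1.04 (limma adjusted p = 0.0011). The tight junction gene CLDN7 and the membrane mucin gene MUC1 fell too, with log2 fold changes of -0.80 and -0.54 (limma adjusted p = 0.0019 and 0.0028). EHF, a relative of ELF3, rose by 0.27 on the log2 scale (limma adjusted p = 0.0017). Of 5 tested suprabasal and cornified layer genes 1 fell and 2 rose, against 9.07% and 9.14% of all tested genes, with a median log2 fold change of -0.08. IVL, which encodes involucrin, a precursor of the cornified envelope, fell to 21.0 ± 0.956 CPM in siAgrin cells, against 45.2 ± 9.29 CPM in siControl cells (SD, n = 3 each, log2 fold change -1.07, limma adjusted p = 0.0012). CASP14, a protease of the cornified layer, and SPINK5, a protease inhibitor, rose by 0.87 and 0.53 on the log2 scale (limma adjusted p = 6.3e-04 and 0.0021). Of the genes of stratified mucosa only EMP1 and ECM1 were tested, at log2 fold changes of -0.06 and -0.21, and neither passed (limma adjusted p = 0.74 and 0.17).

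Of 8 linkers that tie keratin filaments to junctions or to other filaments 3 rose and 5 did not pass, with a median log2 fold change of 0.06, where 9.14% of all tested genes rose. DSP, the desmosomal plakin that anchors keratins, had 900.6 ± 39.9 CPM in siAgrin and 623 ± 4.43 CPM in siControl cells (SD, n = 3 each), a log2 fold change of 0.53 (limma adjusted p = 3.6e-04). EPPK1, which encodes the keratin-binding protein epiplakin, and DST, which encodes the hemidesmosomal plakin BPAG1, rose by 0.63 and 0.34 on the log2 scale (limma adjusted p = 7.3e-04 and 0.0013). Of 22 tested transcription factors with a role in epithelial and keratin genes 2 fell and 20 did not pass, with a median log2 fold change of -0.07, a share of falls close to the 9.07% of all tested genes. These were ETS1, at a log2 fold change of -0.36, and KLF5, at -0.29 (limma adjusted p = 0.0018 and 0.0054). TP63, the master regulator of stratified epithelia, had 530, 637 and 618 CPM in siAgrin cells, against 509, 525 and 538 CPM in siControl cells, which overlapped.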

How the data were processed

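Stranded, polyA-selected libraries were sequenced. For alignment to hg38 the authors used STAR 2.6.1d, for counting over GENCODE genes HTSeq, and for scaling edgeR, and they deposited CPM of 14168 genes. Division by the value of a single read gave whole numbers for 100% of entries, to within 0.01, and these recovered reads served the count tests. The strand setting and the filter on genes are not given in the sources used here, and the labels and the paper differ in culture medium and RNA kit.

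For the comparison, log2(CPM + 0.5) of the 13050 genes that reached 0.5 CPM in 3 or more libraries was fitted by two-sided limma-trend (limma 3.58.1, R 4.3.3), with Benjamini-Hochberg adjustment over all of them and a threshold of 0.01. The test was checked on simulated counts, where 51 of 67 genes changed 1.5-fold and 67 of 67 changed 2-fold were called, with 0 false calls. Every simulated gene had the same dispersion, and changes as small as that of KRT8 were not simulated. The 10 keratins and all gene lists were chosen with earlier results of these data known. Named genes were the keratins, AGRN and, in each list, up to 4 called genes with the smallest p or, if fewer than 2 were called, the 2 of highest CPM. TP63 was named after its values were seen. Alternatives were other pseudocounts and filters, median-ratio or TMM scaling, limma fitted robustly or with no trend, edgeR 4.0.16 and DESeq2 1.42.0 on the recovered reads, which called 2360 and 3361 genes, an adjusted p below 0.05, replicate number as a block, and each library left out. Positions and lengths are from GENCODE on GRCh38 (a later release than the authors'), and promoters from RefSeq on GRCh38.p14. Protein sequences were not used here.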

Additional observations from a re-analysis of the deposited data

How the results depend on the processing

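Across 18 alternatives KRT4 kept its direction and passed each time, and KRT18 and KRT80 never passed. Some alternatives could hardly remove a call. TMM factors were 0.9994 to 1.001, so that scaling changed little, and a call at 0.01 in the main fit also passes at 0.05. Without a filter on low values 2 keratins fell, since KRT13 and KRT1 did not pass (log2 fold changes -0.72 and -0.91, adjusted p = 0.016 and 0.023 from limma), and KRT1 also did not pass without a trend (log2 fold change -0.91, adjusted p = 0.013 from limma). At a mean of at least 5 CPM KRT1 was not tested. KRT19 passed in DESeq2 (log2 fold change -0.40, adjusted p = 0.0013) and at an adjusted p below 0.05 (log2 fold change -0.40). The paper states no pairing by replicate number, so the main test had no block. Same-numbered libraries had deviations from their group means that correlated at 0.53, 0.38 and -0.0019. For siAgrin 1 the values were -0.36 and -0.34 with siControl 2 and 3, and for siAgrin 2 -0.55 and 0.35 with siControl 1 and 3. Library siAgrin 3 gave 0.031 and -0.038 with siControl 1 and 2. These values cannot settle whether the numbers pair the libraries. Library siAgrin 3 matched none, and siAgrin 2 matched siControl 3 nearly as well as siControl 2. With replicate number as a block KRT19 passed (log2 fold change -0.40, adjusted p = 7.8e-04 from limma), no other call among these keratins changed, and 3966 of all tested genes were called, against 2377 without the block. Leaving out 1 library gave 1 to 5 keratins lower and 0 to 1 higher. Log2 fold changes then ranged from -1.05 to -0.71 (KRT1), -0.95 to -0.83 (KRT4), -0.67 to -0.52 (KRT7), 0.25 to 0.28 (KRT8), -0.77 to -0.68 (KRT13), -0.51 to -0.31 (KRT19), -0.18 to 0.0059 (KRT10, which changed sign at 0.0059 without siAgrin 2 and did not pass in any case), -0.11 to -0.02 (KRT18), -0.15 to -0.03 (KRT80) and -1.06 to -1.01 (AGRN). The fits of 2 libraries against 3 rest on a spread pooled over both groups. By length of all annotated exons KRT7 ranked eighth rather than seventh among keratins in siControl cells, an alternative chosen after seeing the data. Depth limits KRT34 and KRT81, which were not tested, and KRT1, KRT3, KRT9 and the pseudogenes, at a few CPM, and the causes of these changes were not tested.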
